A study of Rattus norvegicus with 32 samples.

Results

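Uteri of rats given bisphenol A (BPA) at 2500 µg per kg body weight per day were set against uteri of rats given the next lower dose of 250 µg per kg per day. The members are the 8 RNA-seq libraries that the labels assign to these doses, 4 per dose, of 32 libraries in all, and all genes of the deposited count table were examined. The animals were Sprague-Dawley rats of the NCTR colony. Their dams were gavaged from gestation day 6 until labor, and the pups themselves from postnatal day (PND) 1 until uteri were taken at PND365. The other 6 groups were BPA at 2.5, 25 and 25000 µg per kg per day, ethinyl estradiol (EE2) at 0.05 and 0.5 µg per kg per day, and a vehicle control on 0.3% carboxymethylcellulose. Each of them had 4 libraries as well. The labels name no animal, litter, estrous stage or sequencing batch, so a p-value here measures only the spread between libraries, which may in part be technical, and differences in these between the dose groups cannot be told apart from dose.

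BPA is a monomer of polycarbonate plastics and epoxy resins that binds estrogen receptors with a much lower affinity than estradiol, and EE2 is the synthetic estrogen of oral contraceptives. The uterus is built of luminal and glandular epithelium, a stroma rich in collagen and proteoglycans, and the smooth muscle of the myometrium. Estrogens act there through nuclear receptors on proliferation, secretion and matrix genes, and the same tissue carries a circadian clock, a loop in which BMAL1 with CLOCK or NPAS2 drives the genes of its own PER, CRY and REV-ERB repressors.

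Total counts ran between 16879384 and 20717318 in the BPA 2500 libraries and between 11802916 and 24661856 in the BPA 250 libraries. Between 13844 and 14138 genes were detected in the BPA 2500 libraries, against 12345 to 13973 in the BPA 250 libraries, with the lowest number in BPA 250 library 1. Markers of the labelled tissue were present in all 8: Krt8 and Epcam of simple epithelium, Acta2 and Myh11 of smooth muscle, and Pecam1 of endothelium. The ovarian markers Zp3 and Gdf9 were at 0 in 6 and 4 of the 8 libraries, and the squamous keratins Krt5 and Krt14 did not pass 1.14 CPM, reads of a gene scaled to a common TMM-adjusted library size. All values come from whole tissue, in which fewer cells of a type and less RNA per cell cannot be told apart. BPA 250 library 1 was among the 4 libraries of the series with the lowest median correlation with the others; without those 4 libraries 1721 genes were called.

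The 2 doses differed at many genes by modest amounts. Of 13312 genes tested by edgeR's quasi-likelihood test, 1913 passed an adjusted p of 0.05, which is 14.4% of the genes tested. In BPA 2500 uteri 887 genes rose (6.66%) and 1026 fell (7.71%). The median log2 difference, of group means of log2 CPM, was 0.76 over the genes that rose, −0.73 over those that fell and 0.10 over all genes tested. A log2 fold change over 1 in size was reached by 225 of the genes that rose and 200 of those that fell. The 4 libraries of one dose did not overlap the 4 of the other at 662 of the genes that rose and 822 of those that fell, and at 2390 genes, 18% of all tested. Of the 1913 calls, 602 were made in each of the 8 fits that left out 1 library, 224 of them higher and 378 lower. The count was 712 without BPA 2500 library 3, 1040 without BPA 2500 library 4, 1148 without BPA 250 library 1 and 1194 without BPA 250 library 4.

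**Figure D1:**
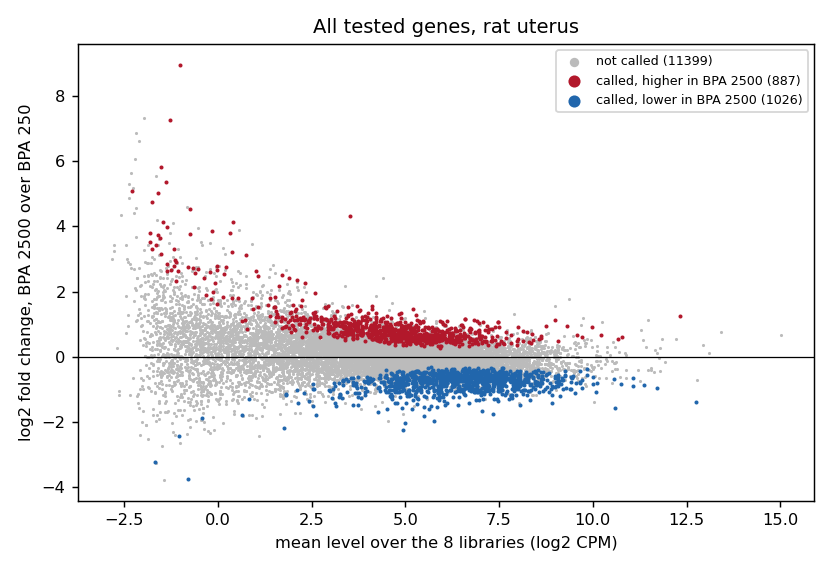
Each point is 1 of the 13312 genes tested. The x axis is its mean level over the 8 libraries in log2 CPM and the y axis its log2 fold change, BPA 2500 over BPA 250; the 887 genes called higher and the 1026 called lower are coloured, and most of the coloured points lie within 1 log2 unit of 0.

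Among genes at a mean log2 CPM of 1 or more, the 12 largest increases at 2500 were in Odad4, Cldn24, C10h16orf89, Btg1b, Clic6, Hspa1l, Pnma8b, Tbx2, Grin1, Prss12, Kif19 and Wdr25. The 12 largest decreases were in Svbp, Pkd2l2, Ptgs2, Giot1, Snhg4, Mlec, C1qtnf3, Ubqln2, Rsad2, Kbtbd3, Mex3b and Rgs1. To be named, a gene had to pass the test with all 4 BPA 2500 libraries on 1 side of the BPA 250 mean. The libraries of the doses did not overlap at 21 of these 24 genes, the exceptions being C10h16orf89, Ptgs2 and C1qtnf3. That choice itself favours sets that do not overlap, so the count is a description. The share without overlap was 74.6% of all genes that rose, 80.1% of those that fell and 18% of all tested. With only the 2 doses in the fit 15 of the 24 were called, and without BPA 2500 libraries 2 and 4 it was 8. Calls at 12 of the 24 were made in every fit that left out 1 of the 8 libraries, and those 12 are described first. Of those 12, Btg1b had an adjusted p of 0.085 with only the 2 doses in the fit. Without BPA 2500 libraries 2 and 4, Pnma8b had 0.0664, Tbx2 0.157, Snhg4 0.0771 and Rgs1 0.0646.

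Btg1b, a BTG family gene, had 8.76, 8.01, 16.1 and 12 CPM in BPA 2500 uteri, against 0, 2.59, 1.96 and 3.75 CPM in BPA 250 uteri. All 4 BPA 2500 libraries were above all 4 BPA 250 libraries, with a log2 fold change of 2.43 (SE 0.52, adjusted p = 0.00386). Clic6, a chloride intracellular channel protein, had 3.03, 7.77, 19.4 and 12 CPM in BPA 2500 uteri and 1.5, 2.13, 2.94 and 1.62 CPM in BPA 250 uteri, and BPA 2500 library 1 lay closest to the lower dose (log2 fold change 2.37, SE 0.53, adjusted p = 0.00483). Pnma8b, of the paraneoplastic antigen family, had 4.71, 10.04, 4.91 and 6.19 CPM in BPA 2500 uteri, against 1.22, 1.22, 1.96 and 1.39 CPM in BPA 250 uteri (log2 fold change 2.17, SE 0.48, adjusted p = 0.00468). Its 2 sets of libraries stood apart, with library 2 highest at BPA 2500. Tbx2, a T-box transcription factor of organ development, had 8.87, 17.5, 6.70 and 16.3 CPM in BPA 2500 uteri and 2.45, 2.54, 4.90 and 2.89 CPM in BPA 250 uteri, again without overlap (log2 fold change 1.96, SE 0.48, adjusted p = 0.00856).

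Svbp, which encodes the small partner protein of the tubulin-detyrosinating vasohibins, had 23.8, 11.7, 11 and 14.8 CPM in BPA 2500 uteri, against 147, 45.8, 47.6 and 50.6 CPM in BPA 250 uteri. It fell in BPA 2500 uteri by 2.25 on the log2 scale (SE 0.34, adjusted p = 0.000567), and BPA 250 library 1 was far above the other BPA 250 libraries. Without the 4 libraries of lowest correlation the log2 fold change of Svbp was −1.65. Ubqln2, a ubiquilin that shuttles ubiquitinated proteins to the proteasome, had 102, 76.2, 56.2 and 72.5 CPM in BPA 2500 uteri and 327, 192, 267 and 180 CPM in BPA 250 uteri. The highest BPA 2500 library was well below the lowest BPA 250 library (log2 fold change −1.65, SE 0.20, adjusted p = 3.1e-05). Mlec, the endoplasmic reticulum lectin malectin that binds glycans of newly made proteins, had 67.4, 111, 111 and 77.1 CPM in BPA 2500 uteri, against 453, 313, 170 and 304 CPM in BPA 250 uteri. The libraries did not overlap, and BPA 250 library 3 was the closest to the higher dose (log2 fold change −1.76, SE 0.28, adjusted p = 0.000618).

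Giot1, a zinc finger gene first described as gonadotropin-inducible in the rat ovary, had 34.7, 26.7, 14.3 and 23.7 CPM in BPA 2500 uteri and 118, 67.2, 69.4 and 92.1 CPM in BPA 250 uteri. It fell by 1.80 on the log2 scale without overlap (SE 0.28, adjusted p = 0.00058). Pkd2l2, of the polycystin channel family, fell by 2.04 (SE 0.34, adjusted p = 0.000802), and Rgs1, a regulator of G protein signalling in leukocytes, fell by 1.57 (SE 0.37, adjusted p = 0.00642). Kbtbd3, a BTB and kelch domain gene, fell by 1.60 (SE 0.32, adjusted p = 0.00253). Snhg4, a small nucleolar RNA host gene, had 5.61, 2.70, 1.98 and 3.12 CPM in BPA 2500 uteri, against 10.3, 14, 10.1 and 11.6 CPM in BPA 250 uteri, and its log2 fold change was −1.78 (SE 0.40, adjusted p = 0.00488). In the GRCr8 annotation Snhg4 lies within Matr3, Pkd2l2 overlaps Fam13b and Btg1b overlaps Ptp4a1l1, and since use of strand in counting is not given, reads of such pairs cannot be told apart.

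**Figure D2:**
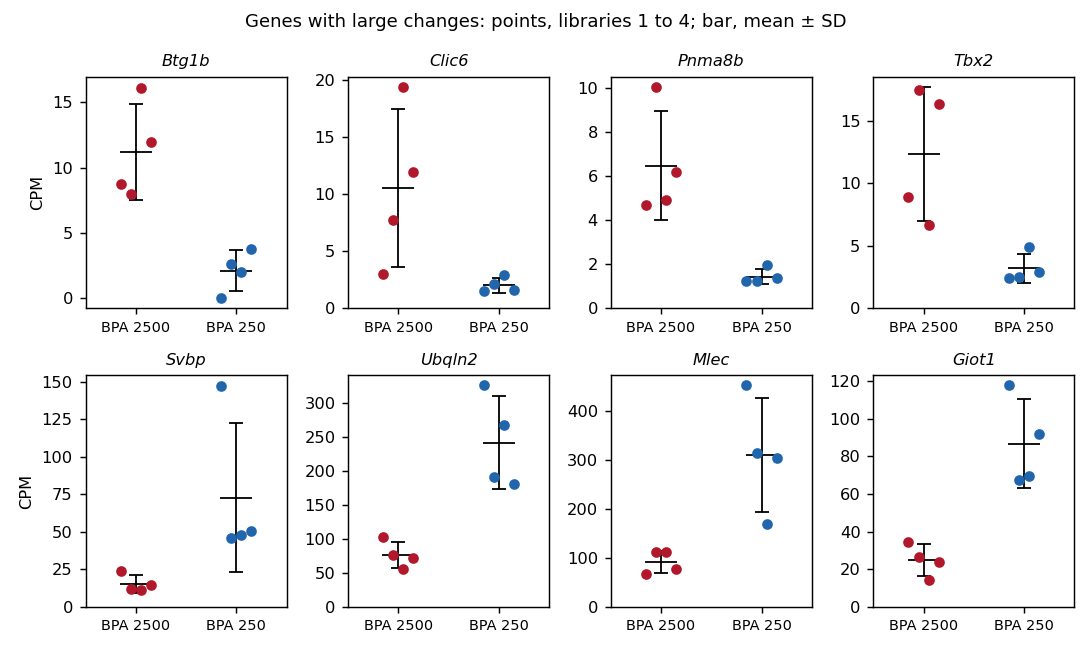
CPM of 4 genes that rose (top) and 4 that fell (bottom), with BPA 2500 left of BPA 250 in each panel; points are libraries 1 to 4 and black marks the mean ± SD (n = 4). In none of the 8 panels do the points of the doses overlap.

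The other 12 of the 24 lost their call when certain libraries were left out. Hspa1l, a heat shock protein of the HSP70 family, had 6.68, 21.3, 20.5 and 12.7 CPM in BPA 2500 uteri and 0, 4.54, 4.19 and 4.04 CPM in BPA 250 uteri. The libraries did not overlap (log2 fold change 2.26, SE 0.64, adjusted p = 0.0184), but the adjusted p was 0.0604 without BPA 2500 library 3, and Hspa1l overlaps its near-identical neighbour Hspa1a. Mex3b, an RNA-binding protein, had a log2 fold change of −1.59 (SE 0.41, adjusted p = 0.0121) and an adjusted p of 0.0585 without BPA 2500 library 3. Ptgs2, the inducible cyclooxygenase of prostaglandin synthesis, had 42.7, 60.1, 16.3 and 29.9 CPM in BPA 2500 uteri, against 384, 33.3, 126 and 37.9 CPM in BPA 250 uteri. Its sets overlapped, with BPA 250 libraries 1 and 3 far above the rest (log2 fold change −1.96, SE 0.59, adjusted p = 0.0264). Without BPA 2500 library 3 or 4 or BPA 250 library 1 its adjusted p lay between 0.0777 and 0.321, and without BPA 250 library 1 its log2 fold change was −0.84.

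Rsad2, the interferon-induced antiviral protein viperin, had a log2 fold change of −1.60 (SE 0.49, adjusted p = 0.0295), with adjusted p between 0.0535 and 0.168 without BPA 2500 library 1, 3 or 4 or BPA 250 library 1. C1qtnf3, a secreted C1q and tumor necrosis factor related protein, had −1.69 (SE 0.53, adjusted p = 0.032), and 0.0568 to 0.339 without BPA 2500 library 3 or 4 or BPA 250 library 4, with −0.72 without the last of these. Odad4 and Kif19 belong to motile cilia. Odad4, of the outer dynein arm docking complex, had 1.68, 16.9, 1.72 and 4.37 CPM in BPA 2500 uteri and 0.445, 0.771, 1.25 and 1.56 CPM in BPA 250 uteri (log2 fold change 2.63, SE 0.78, adjusted p = 0.0248). BPA 2500 library 2 stood far above the other 7, and the adjusted p lay between 0.0557 and 0.217 without it or without BPA 250 library 1 or 2. Without BPA 2500 library 2 the log2 fold change of Odad4 was 1.36. Kif19, a kinesin that limits cilium length, had 7.13, 10.9, 8.80 and 9.12 CPM in BPA 2500 uteri, against 1.78, 5.22, 1.60 and 2.08 CPM in BPA 250 uteri (log2 fold change 1.73, SE 0.55, adjusted p = 0.0337). Its sets did not overlap, yet the adjusted p was 0.0653 to 0.104 without BPA 2500 library 2, 3 or 4 or BPA 250 library 1, 3 or 4.

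Cldn24, a tight junction claudin, had a log2 fold change of 2.51 (SE 0.77, adjusted p = 0.0295), with adjusted p of 0.0629 to 0.0811 without BPA 2500 library 2 or 3 or BPA 250 library 1, 2 or 4. C10h16orf89 had 2.47 (SE 0.80, adjusted p = 0.0374), and 0.0501 to 0.106 without BPA 2500 library 1 or 4 or BPA 250 library 1, 3 or 4; without BPA 250 library 2 the log2 fold change of C10h16orf89 was 3.10. Wdr25, a WD repeat gene, had 1.59 (SE 0.50, adjusted p = 0.0329), and 0.061 to 0.0786 without BPA 2500 library 2, 3 or 4 or BPA 250 library 3. Grin1, an NMDA receptor subunit, had 1.85 (SE 0.62, adjusted p = 0.0445), and 0.0511 to 0.233 without BPA 2500 library 3 or 4 or any one BPA 250 library, with 1.21 without BPA 2500 library 3. Prss12, the serine protease neurotrypsin, had 1.79 (SE 0.62, adjusted p = 0.0499), and lost its call without any one of the 8 libraries (adjusted p 0.0574 to 0.111).

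The smallest p of the comparison belonged to gene 690300, which has no symbol in the table used. It had 27, 28.2, 23.4 and 24 CPM in BPA 2500 uteri and 71.8, 56.6, 55.6 and 67.9 CPM in BPA 250 uteri. Both sets were tight and far apart (log2 fold change −1.30, SE 0.14, adjusted p = 2.61e-06). It was chosen after its values were seen.

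In a list of splicing factors and nuclear retained RNAs, the members that passed the test all fell. Of 26 tested members, 0 rose and 11 fell, which is 42.3% against 7.71% of all genes tested, and 21 had a difference below 0. At an unadjusted p under 0.05 there was 1 higher member, and DESeq2 and voom called 0 higher. The count that fell was 6 without BPA 2500 library 3, 7 without BPA 2500 library 4 and 7 without BPA 250 library 1. It was 5 with only the 2 doses in the fit and 2 without BPA 2500 libraries 2 and 4. The list's median log2 difference was −0.34, against 0.10 over all genes. Summed over the list, the 4 BPA 2500 libraries held 13340, 11027, 10256 and 10339 CPM, against 16557, 14155, 14298 and 13917 CPM in the BPA 250 libraries. The lowest BPA 250 sum was above the highest BPA 2500 sum. A gap between such sums, which the most abundant members weigh most, was not particular to the splicing list. Wnt signalling genes summed to 1840 to 2000 CPM in BPA 2500 uteri, against 2033 to 2314 CPM in BPA 250 uteri. Endometrial cancer drivers summed to 2024 to 2147 against 2269 to 2327 CPM. Unlike the splicing list, neither list had a median log2 difference below 0. It was 0.09 for Wnt genes, with 18 of 29 above 0, and 0.09 for cancer drivers, with 11 of 19 above 0. The sums of stroma and matrix genes also stood apart, up to 19638 CPM against at least 22946 CPM. Dcn, described below, held a large part of these sums, and without it the sums of the doses overlap. The median log2 difference of that list was −0.16, with 9 of 29 above 0.

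SR proteins bind exonic enhancers and recruit the spliceosome. Srsf1 had 545, 587, 446 and 403 CPM in BPA 2500 uteri, against 1248, 992, 778 and 933 CPM in BPA 250 uteri. It fell with no overlap (log2 fold change −0.996, SE 0.19, adjusted p = 0.00185). Srsf3 had 481, 434, 359 and 340 CPM in BPA 2500 uteri and 962, 744, 634 and 638 CPM in BPA 250 uteri, also without overlap (log2 fold change −0.88, SE 0.21, adjusted p = 0.00699). Srsf6 fell by 0.82 on the log2 scale without overlap (SE 0.19, adjusted p = 0.00588). Rbm25, an RNA-binding regulator of splice site choice, had 243, 180, 142 and 147 CPM in BPA 2500 uteri, against 401, 317, 277 and 314 CPM in BPA 250 uteri. Its sets did not overlap (log2 fold change −0.88, SE 0.16, adjusted p = 0.00128).

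Clk4, a kinase that phosphorylates SR proteins, had 104, 69.1, 62.6 and 89.8 CPM in BPA 2500 uteri and 148, 127, 146 and 119 CPM in BPA 250 uteri. All BPA 2500 libraries were below all BPA 250 libraries (log2 fold change −0.73, SE 0.16, adjusted p = 0.00528). Hnrnph1, a heterogeneous nuclear ribonucleoprotein, had 431, 245, 229 and 232 CPM in BPA 2500 uteri, against 570, 469, 466 and 424 CPM in BPA 250 uteri. BPA 2500 library 1 reached into the range of the lower dose (log2 fold change −0.76, SE 0.19, adjusted p = 0.00871). These 6 calls were made in every fit that left out 1 of the 8 libraries. The other 5 were lost in 3 to 6 of those fits: Luc7l3 (log2 fold change −0.61, adjusted p 0.0567 to 0.101 without BPA 2500 library 3 or 4 or BPA 250 library 1), Hnrnpu (−0.44, 0.0526 to 0.133 without BPA 2500 library 1, 3 or 4 or BPA 250 library 1 or 4), Clk1 (−0.60, 0.0593 to 0.173 without BPA 2500 library 2 or 3 or BPA 250 library 2, 3 or 4), Son (−0.39, 0.0673 to 0.173 without BPA 2500 library 3 or 4 or BPA 250 library 1, 2 or 4) and Srsf11 (−0.62, 0.0532 to 0.144 without BPA 2500 library 2, 3 or 4 or BPA 250 library 1, 2 or 4). Members closest to the threshold without passing were Hnrnpa1 (−0.61, adjusted p = 0.0659), Srsf7 (−0.44, adjusted p = 0.0664) and Snrnp70, of the U1 particle (0.53, adjusted p = 0.0726). Srsf1 overlaps Vezf1 in the GRCr8 annotation, and Vezf1 had a log2 fold change of −0.67 (adjusted p = 0.0138).

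Clock genes moved in both directions. Of 18 tested, 5 rose (27.8%) and 2 fell (11.1%), against 6.66% and 7.71% of all genes, and the list's median log2 difference was −0.00. The list had 3 calls with only the 2 doses in the fit, and 5 to 7 without 1 library. The genes that rose were the repressor Nr1d1 (REV-ERB alpha), the output factor Dbp, Per3 and the kinases Csnk1d and Csnk1e that phosphorylate PER proteins. Those that fell were the repressor Cry1 and the activator Npas2. The labels give no time of day of collection, so its part in these values was not tested.

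The promoters of 3 of these genes are shown because Nr1d1 and Dbp rose together while Npas2 fell. They are 300-base windows of RefSeq on GRCr8, 250 bases before and 50 after the gene start, printed on the gene's strand. The capitals in Nr1d1 mark AACGTG, the reverse complement of the variant E-box CACGTT. The windows lie at chr10:84231763-84232062 on the minus strand for Nr1d1, chr1:105312006-105312305 on the plus strand for Dbp and chr9:48959315-48959614 on the plus strand for Npas2.
Nr1d1: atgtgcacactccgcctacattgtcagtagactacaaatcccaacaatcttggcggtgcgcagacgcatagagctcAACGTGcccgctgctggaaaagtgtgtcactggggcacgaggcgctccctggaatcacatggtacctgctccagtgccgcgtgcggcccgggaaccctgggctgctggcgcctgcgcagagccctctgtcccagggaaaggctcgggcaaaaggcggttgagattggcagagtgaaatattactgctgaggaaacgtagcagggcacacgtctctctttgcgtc
Dbp: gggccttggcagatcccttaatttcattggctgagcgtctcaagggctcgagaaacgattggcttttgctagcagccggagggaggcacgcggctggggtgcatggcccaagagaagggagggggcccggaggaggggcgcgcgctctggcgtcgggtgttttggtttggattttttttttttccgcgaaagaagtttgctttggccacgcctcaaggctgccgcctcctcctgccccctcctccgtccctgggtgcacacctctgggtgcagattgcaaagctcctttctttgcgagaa
Npas2: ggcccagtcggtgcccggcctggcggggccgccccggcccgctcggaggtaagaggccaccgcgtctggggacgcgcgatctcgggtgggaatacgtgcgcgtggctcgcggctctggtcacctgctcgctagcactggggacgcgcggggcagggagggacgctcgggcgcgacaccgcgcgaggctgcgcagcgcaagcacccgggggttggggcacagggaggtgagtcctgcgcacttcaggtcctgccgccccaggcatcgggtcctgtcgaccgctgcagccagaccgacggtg

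Searched on both strands, the canonical E-box CACGTG, the D-box TTATGTAA, the receptor half-site AGGTCA and the estrogen response element (GGTCA and TGACC with 3 free bases between) were in none of the 3 windows, and the variant E-box was in that of Nr1d1 alone. No motif searched overlaps another there. The canonical E-box was in 6.65% of all 27457 promoter windows, in 8.97% of those of tested genes, in 11.3% of the 726 windows of genes that rose and in 9.44% of the 837 windows of genes that fell. The variant E-box was in 4.93%, 5.6%, 5.23% and 5.38% of the same sets, and the half-site in 15.7%, 12.3%, 13.8% and 10.2%. The D-box was in 0.881% of all windows and in 0.487% of those of tested genes. It was in 1 of the windows of genes that rose (0.138%) and in 5 of those of genes that fell (0.597%). The estrogen response element was in 7 of all windows and in 0 of the windows of called genes. A match describes letters only, and a window with none says nothing of sites elsewhere.

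Nr1d1 had 58.1, 39.0, 57.7 and 39.0 CPM in BPA 2500 uteri, against 23.3, 16.5, 24 and 12.4 CPM in BPA 250 uteri. The lowest BPA 2500 library exceeded the highest BPA 250 library (log2 fold change 1.35, SE 0.24, adjusted p = 0.00109). Nr1d1 overlaps Thra on the genome, and Thra had a log2 fold change of 0.30 (adjusted p = 0.297). Dbp had 42.4, 39.3, 41.4 and 26.4 CPM in BPA 2500 uteri and 23.2, 9.44, 22.8 and 8.08 CPM in BPA 250 uteri, close but without overlap (log2 fold change 1.24, SE 0.30, adjusted p = 0.00856). Cry1 had 16.3, 17.9, 14.6 and 20.9 CPM in BPA 2500 uteri, against 25.8, 35.8, 38.5 and 30.3 CPM in BPA 250 uteri. It fell by 0.90 on the log2 scale with the sets apart (SE 0.21, adjusted p = 0.00699). Npas2 had 78.1, 64.9, 46.8 and 90.4 CPM in BPA 2500 uteri and 91.0, 159, 114 and 147 CPM in BPA 250 uteri. BPA 2500 library 4 and BPA 250 library 1 nearly met (log2 fold change −0.87, SE 0.19, adjusted p = 0.00433).

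Csnk1d had 170, 179, 215 and 186 CPM in BPA 2500 uteri, against 122, 154, 121 and 138 CPM in BPA 250 uteri, a small change without overlap (log2 fold change 0.49, SE 0.11, adjusted p = 0.00578). Calls at these 5 genes were made in every fit that left out 1 of the 8 libraries. Per3 (log2 fold change 0.98, SE 0.27, adjusted p = 0.0176) had adjusted p between 0.0538 and 0.0722 without BPA 2500 library 1 or 3 or BPA 250 library 2 or 4. Csnk1e (0.86, SE 0.24, adjusted p = 0.0167) had 0.063 to 0.0759 without BPA 2500 library 3 or 4 or BPA 250 library 1. The core activators Bmal1 and Clock did not pass, with log2 fold changes of −0.32 (adjusted p = 0.261) and −0.36 (adjusted p = 0.108). Per2, at 85.7, 88.6, 75.5 and 58.1 CPM in BPA 2500 uteri and 102, 96.2, 143 and 104 CPM in BPA 250 uteri, did not overlap but did not pass either (−0.53, adjusted p = 0.111).

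**Figure D3:**
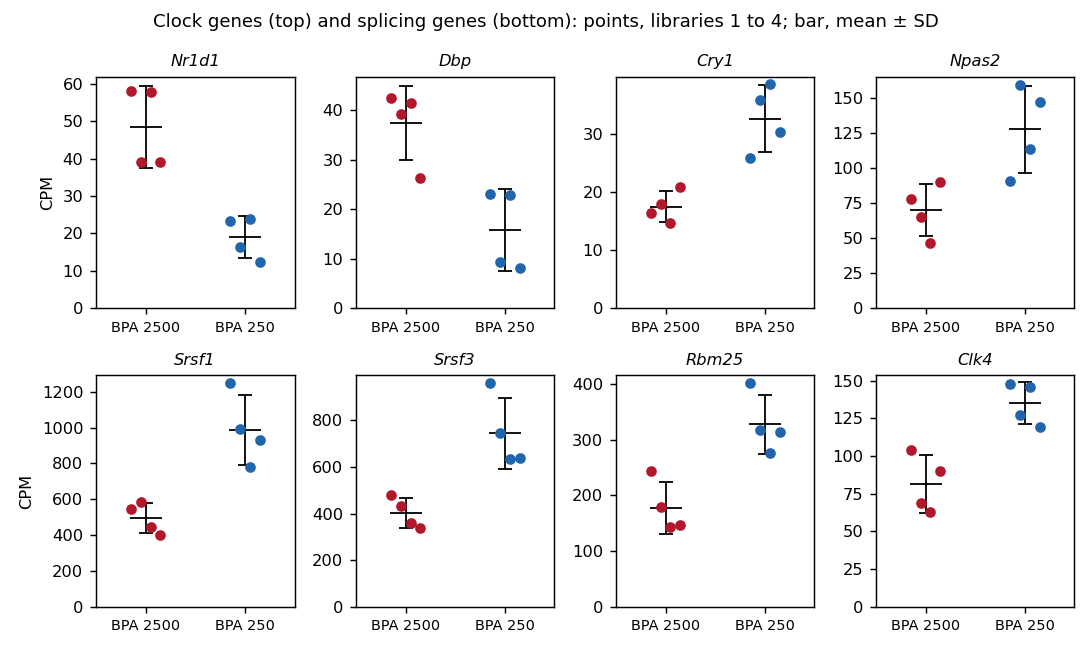
CPM of 4 clock genes (top) and 4 splicing genes (bottom), BPA 2500 left of BPA 250; points are libraries 1 to 4 and black marks the mean ± SD (n = 4). Nr1d1 and Dbp are higher in BPA 2500 uteri, the other 6 are lower, and no panel has overlapping points.

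Of 25 tested estrogen response genes of the uterus, 1 rose (4%) and 0 fell, against 6.66% and 7.71% of all genes tested (0 lower at an unadjusted p under 0.05, in DESeq2 or in voom), with a median log2 difference of 0.34. The gene that rose was Cyp2s1, a cytochrome P450 at a low level, with 0.954, 2.70, 2.23 and 2.30 CPM in BPA 2500 uteri, against 0, 0.499, 0.624 and 0.577 CPM in BPA 250 uteri (log2 fold change 2.27, SE 0.65, adjusted p = 0.0198, and 0.0537 without BPA 2500 library 3). The estrogen receptor Esr1 had 138, 177, 169 and 125 CPM in BPA 2500 uteri and 127, 128, 102 and 141 CPM in BPA 250 uteri, an overlap (log2 fold change 0.29, SE 0.22, adjusted p = 0.378). The progesterone receptor Pgr had 293, 189, 314 and 98.0 CPM in BPA 2500 uteri, against 132, 243, 148 and 140 CPM in BPA 250 uteri (0.43, SE 0.35, adjusted p = 0.423). Its widest spread was among the BPA 2500 libraries. Igf1, the estrogen-induced growth factor, had −0.13 (SE 0.41, adjusted p = 0.85) and the secretory marker Ltf −0.21 (SE 0.97, adjusted p = 0.9), and both changed sign when single libraries were left out. Greb1, also among the genes chosen for description, was not analysed here.

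Of 21 progesterone response genes 0 passed in edgeR (5 at an unadjusted p under 0.05; DESeq2 called 1 and voom 3), with a median log2 difference of 0.04. Of 29 cell cycle genes 0 passed (5 unadjusted; DESeq2 0 and voom 3), with a median of 0.30. Mki67, which marks dividing cells, had 23.1, 32, 94.5 and 53.6 CPM in BPA 2500 uteri and 20.7, 34.5, 16.1 and 29.3 CPM in BPA 250 uteri, with an overlap (log2 fold change 1.01, SE 0.50, adjusted p = 0.173).

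Among 33 nuclear receptors and coregulators, 3 rose and 3 fell, near the background of 6.66% and 7.71%. Rarg, a retinoic acid receptor, had 34.4, 38.3, 52.4 and 41.3 CPM in BPA 2500 uteri, against 25.7, 25.6, 20.2 and 19.3 CPM in BPA 250 uteri (log2 fold change 0.87, SE 0.22, adjusted p = 0.00924, and 0.0501 without BPA 2500 library 3). The coactivator Ncoa2 had 41.2, 40.1, 49.4 and 35.1 CPM in BPA 2500 uteri and 26.6, 19.6, 23.3 and 23.1 CPM in BPA 250 uteri (0.84, SE 0.23, adjusted p = 0.014, and 0.0635 without BPA 2500 library 3). Neither gene overlapped between doses. The glucocorticoid receptor Nr3c1 had 168, 164, 115 and 127 CPM in BPA 2500 uteri, against 274, 227, 237 and 278 CPM in BPA 250 uteri, again apart (−0.82, SE 0.24, adjusted p = 0.0234). Its adjusted p was 0.0514 to 0.0938 without BPA 2500 library 3 or 4 or BPA 250 library 1 or 4. Arnt, the partner of the aryl hydrocarbon receptor, had −0.74 (adjusted p = 0.0158, and 0.0641 to 0.111 without BPA 2500 library 4 or BPA 250 library 1). Nr2f1, the orphan receptor COUP-TF1, had −1.02 (adjusted p = 0.0383) and lost the call in 5 of the 8 fits, those without BPA 2500 library 1, 2 or 3 or BPA 250 library 1 or 4, with adjusted p up to 0.123.

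Enzymes that handle steroids and xenobiotics gave 2 genes that rose (8.33%) and 1 that fell (4.17%) of 24, near the shares of all genes. Por, the reductase that supplies electrons to microsomal cytochromes P450, had 38.1, 49.1, 51.8 and 50.6 CPM in BPA 2500 uteri and 19.3, 28.6, 22.6 and 24.6 CPM in BPA 250 uteri (log2 fold change 0.99, SE 0.20, adjusted p = 0.00291). BPA 2500 library 1 was the lowest of its dose and still above the lower dose. Fdx1, the ferredoxin of mitochondrial cytochromes P450, had 25.6, 23.2, 22.6 and 28.1 CPM in BPA 2500 uteri and 56.1, 42.9, 38.3 and 41.7 CPM in BPA 250 uteri, and fell by 0.85 with no overlap (SE 0.18, adjusted p = 0.00316). The calls at Por and Fdx1 were made in every fit that left out 1 of the 8 libraries.

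Of 19 endometrial cancer drivers, 3 rose (15.8%) and 4 fell (21.1%), against 6.66% and 7.71% of all genes tested. The list had 1 call without BPA 2500 library 3 and 2 without BPA 250 library 1. Nfe2l2, the NRF2 factor of the antioxidant response, had 165, 191, 173 and 193 CPM in BPA 2500 uteri, against 303, 350, 255 and 333 CPM in BPA 250 uteri. It fell by 0.78 on the log2 scale without overlap (SE 0.14, adjusted p = 0.00109), and its call was made in every fit that left out 1 of the 8 libraries. Pik3ca, the catalytic subunit of phosphoinositide 3-kinase, had 196, 187, 158 and 172 CPM in BPA 2500 uteri and 272, 225, 258 and 270 CPM in BPA 250 uteri (−0.52, SE 0.14, adjusted p = 0.0162, and 0.0736 without BPA 2500 library 3). Its regulatory subunit Pik3r1 rose by 0.54 (SE 0.15, adjusted p = 0.0205, and 0.0555 to 0.0954 without BPA 2500 library 3 or BPA 250 library 1 or 2). Neither of the kinase genes overlapped between doses. The phosphatase subunit Ppp2r1a (0.41, adjusted p = 0.0143) and the chromatin insulator protein Ctcf (−0.44, adjusted p = 0.0269) lost the call without BPA 2500 library 3 or BPA 250 library 1, and Ctcf also without BPA 2500 library 4, with adjusted p up to 0.0702 for Ppp2r1a and 0.116 for Ctcf.

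Wnt signalling gave 3 genes that rose (10.3%) and 2 that fell (6.9%) of 29, near the 6.66% and 7.71% of all genes tested. Lef1, a nuclear effector of the pathway, had 0.842, 1.18, 0.510 and 1.30 CPM in BPA 2500 uteri and 0, 0.272, 0 and 0.173 CPM in BPA 250 uteri. It was low throughout and did not overlap (log2 fold change 2.90, SE 0.69, adjusted p = 0.00695, and 3.78 on the log2 scale without BPA 250 library 2). The coreceptor Lrp5 had 74.7, 89.8, 124 and 127 CPM in BPA 2500 uteri, against 66.0, 61.7, 47.8 and 48.0 CPM in BPA 250 uteri (0.89, SE 0.24, adjusted p = 0.0152), and 0.0515 to 0.064 without BPA 2500 library 3 or 4 or BPA 250 library 4. Axin2, a feedback inhibitor and target of the pathway, rose by 0.66 (SE 0.22, adjusted p = 0.04) and lost the call without any one library but BPA 250 library 2 (0.069 to 0.119). The receptor Fzd6 fell by 0.55 (adjusted p = 0.0245, and 0.0626 to 0.0956 without BPA 2500 library 3 or BPA 250 library 1 or 2). The secreted modulator Dkk2 fell by 0.94 (adjusted p = 0.0403, and 0.0596 to 0.166 without any one BPA 2500 library or BPA 250 library 1 or 4).

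In growth factor pathways, Spry1, an inhibitor of receptor tyrosine kinase signalling, had 31.5, 26.5, 17.2 and 19.5 CPM in BPA 2500 uteri and 73.0, 43.1, 62.0 and 61.0 CPM in BPA 250 uteri. It fell by 1.34 with no overlap (SE 0.24, adjusted p = 0.00125), and its call was made in every fit that left out 1 of the 8 libraries. Nrg2, a ligand of ErbB receptors, had 10.3, 6.49, 23.9 and 11.3 CPM in BPA 2500 uteri, against 3.23, 6.17, 4.46 and 3.93 CPM in BPA 250 uteri (1.54, SE 0.41, adjusted p = 0.0131, and 0.0532 to 0.0985 without BPA 2500 library 3 or BPA 250 library 1). These were 1 of 17 EGF family and ErbB genes in each direction (5.88% each, against 6.66% higher and 7.71% lower over all genes tested). Grb10, an adaptor that restrains insulin and IGF receptors, was the single call of 18 insulin-like growth factor genes (−0.76, SE 0.20, adjusted p = 0.0136, and 0.0642 without BPA 2500 library 3). Smad6, an inhibitor of BMP signalling, was the single call of 31 BMP and hedgehog genes (1.40, SE 0.35, adjusted p = 0.01, and 0.0536 without BPA 2500 library 4).

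Of 29 protein folding genes, 3 rose (10.3%) and 2 fell (6.9%), near the 6.66% and 7.71% of all genes tested. Hspa8, the constitutive HSP70, had 1669.8, 2000.4, 2386 and 1944 CPM in BPA 2500 uteri and 1242, 1469, 1601 and 1130.2 CPM in BPA 250 uteri (log2 fold change 0.56, SE 0.14, adjusted p = 0.00985, and 0.0588 without BPA 2500 library 3). Its cochaperone Dnaja1 had 314, 330, 288 and 319 CPM in BPA 2500 uteri, against 520, 522, 482 and 469 CPM in BPA 250 uteri, the opposite direction, without overlap (−0.67, SE 0.18, adjusted p = 0.0136, and 0.0571 without BPA 2500 library 3). Xbp1, a transcription factor of the unfolded protein response, fell by 0.73 (adjusted p = 0.0227, and 0.069 to 0.104 without BPA 2500 library 4 or BPA 250 library 1), and Manf, a secreted protein of the same response, rose by 1.16 (adjusted p = 0.0161, and 0.0553 to 0.0795 without BPA 2500 library 3 or BPA 250 library 1 or 4).

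Proteasome subunits gave 2 that rose (9.09%) and 3 that fell (13.6%) of 22, and the respiratory chain 1 (3.85%) and 2 (7.69%) of 26. Over all genes tested the shares were 6.66% and 7.71%. The core subunit Psmb3 fell by 0.65 (SE 0.17, adjusted p = 0.0109), with a call in every fit that left out 1 of the 8 libraries, and Psmd2, a base subunit of the cap, rose by 0.52 (SE 0.14, adjusted p = 0.0122, and 0.0736 without BPA 2500 library 3). Atp5mg, a subunit of ATP synthase, had 233, 125, 112 and 131 CPM in BPA 2500 uteri, against 378, 339, 400 and 338 CPM in BPA 250 uteri. It fell by 1.28 with the sets apart (SE 0.29, adjusted p = 0.00512) and in every fit that left out 1 of the 8 libraries. Cox7c, a small subunit of cytochrome c oxidase, fell by 1.16 (SE 0.29, adjusted p = 0.0104, and 0.0501 without BPA 2500 library 3). Chromatin enzymes gave 1 call each way of 20 (5% each, below the shares of all genes). The histone methyltransferase Ehmt2 rose by 0.72 (SE 0.15, adjusted p = 0.0038) and the deacetylase Hdac2 fell by 0.52 (SE 0.12, adjusted p = 0.00743), both in every such fit. Slc2a1, the glucose transporter GLUT1, had 103, 171, 104 and 126 CPM in BPA 2500 uteri and 302, 227, 156 and 214 CPM in BPA 250 uteri, with BPA 2500 library 2 above BPA 250 library 3 (−0.83, SE 0.20, adjusted p = 0.00752).

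**Figure D4:**
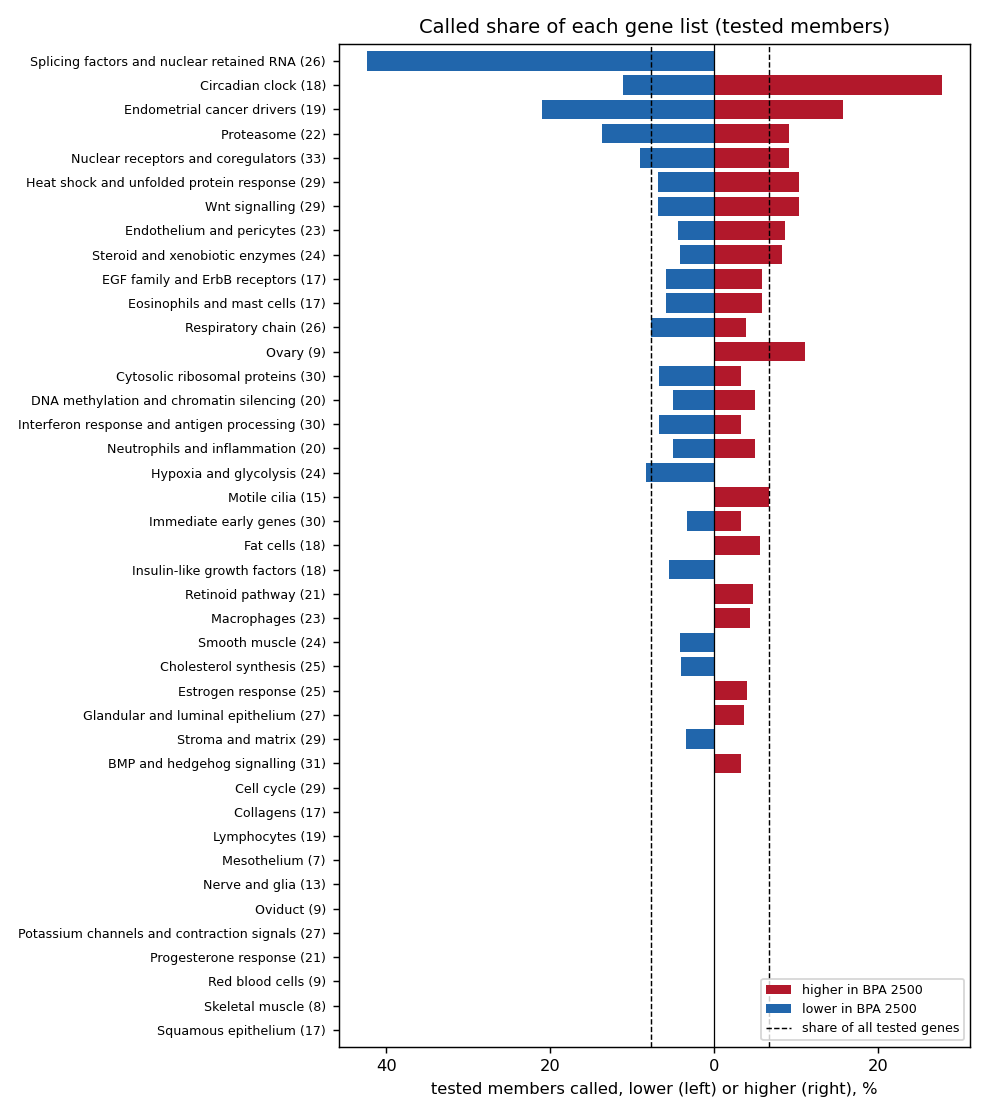
Share of the tested members of each of 41 gene lists called lower (left, blue) or higher (right, red) in BPA 2500 than in BPA 250 uteri, in percent, with the number tested in parentheses; dashed lines are the shares of all tested genes, 7.71% lower and 6.66% higher. The splicing list has the longest bar to the left (42.3%) and the clock list the longest to the right (27.8%).

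Markers of cell types passed seldom. Of all genes tested, 6.66% rose and 7.71% fell. Dcn, the collagen-binding proteoglycan decorin of stromal cells, had 3718, 4482, 3481 and 5686 CPM in BPA 2500 uteri, against 11573, 10184, 11408 and 12158 CPM in BPA 250 uteri. It was the only call of 29 stroma and matrix genes, and its sets were far apart (log2 fold change −1.38, SE 0.40, adjusted p = 0.0199, and 0.0754 without BPA 2500 library 3). Collagen genes gave 0 calls of 17 in edgeR (2 at an unadjusted p under 0.05; DESeq2 0 and voom 1). Of 24 smooth muscle genes Cald1 alone passed (−0.66, SE 0.21, adjusted p = 0.0335, and 0.0515 to 0.153 without BPA 2500 library 2, 3 or 4 or BPA 250 library 2 or 4). Acta2 had −0.72 (SE 0.31, adjusted p = 0.121). Yet 16 of the 24 had a difference above 0 and 8 below, with a median log2 difference of 0.23. At an unadjusted p under 0.05, 2 were higher and 4 lower. Myh11 had 4998 to 6825 CPM in BPA 2500 uteri, against 2292 to 5039 CPM in BPA 250 uteri. Pecam1, an adhesion molecule of endothelium, had 145, 142, 150 and 169 CPM in BPA 2500 uteri and 351, 256, 191 and 237 CPM in BPA 250 uteri (−0.77, SE 0.21, adjusted p = 0.0148, and 0.0501 to 0.0757 without BPA 2500 library 3 or BPA 250 library 1). Of 23 endothelial and pericyte genes, 2 rose (8.70%) and 1, Pecam1, fell (4.35%), near the shares of all genes. The 2 that rose were Cspg4 and Tie1, with log2 fold changes of 0.50 to 0.76 and 0.47 to 0.74 over the alternative fits. They lost the call in 5 and 6 of the 8 fits that left out 1 library, with adjusted p up to 0.12 and 0.135.

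In simple epithelium Krt8 had 363, 317, 260 and 338 CPM in BPA 2500 uteri, against 123, 589, 215 and 250.6 CPM in BPA 250 uteri, with an overlap (log2 fold change 0.12, SE 0.46, adjusted p = 0.884), and its sign changed without BPA 250 library 1 or 3. The claudin Cldn4 was the single call of 27 epithelial genes (1.47, SE 0.45, adjusted p = 0.0275, and 0.0857 to 0.125 without BPA 2500 library 3 or BPA 250 library 1 or 4). Yet 25 of the 27 had a difference above 0, with a median log2 difference of 0.57, against 0.10 over all genes. At an unadjusted p under 0.05, 5 were higher and 0 lower. The summed CPM of the list overlapped, at 2813 to 4466 in BPA 2500 and 2001 to 4462 in BPA 250 uteri. Markers of lymphocytes, squamous epithelium, nerve, mesothelium, red blood cells, skeletal muscle and oviduct gave 0 calls in edgeR. At an unadjusted p under 0.05 there were 2 of 19 lymphocyte markers, 3 of 17 squamous markers, 1 of 13 nerve markers, 2 of 7 mesothelium markers and 6 of 9 oviduct markers, and 0 of 9 red blood cell and of 8 skeletal muscle markers. DESeq2 called 1 squamous, 1 nerve and 2 mesothelium markers, voom 1 nerve and 1 mesothelium marker, and neither called any of the rest.

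Markers of ciliated cells varied between libraries of the same dose. Of 15 motile cilia genes tested, 14 had a difference above 0, with a median log2 difference of 1.78, against 0.10 over all genes. At an unadjusted p under 0.05, 9 were higher and 0 lower. In edgeR 1 rose (6.67%, against 6.66% of all genes tested) and 0 fell. Summed over 15 motile cilia genes, the BPA 2500 libraries held 91.9, 487, 55.4 and 202 CPM, against 159, 85.1, 145 and 140 CPM in the BPA 250 libraries. The ciliary regulator Foxj1 had 1.74, 37.7, 0.446 and 11.7 CPM in BPA 2500 uteri and 2.17, 0.363, 2.32 and 0 CPM in BPA 250 uteri (log2 fold change 3.46, SE 1.22, adjusted p = 0.0548, and 1.98 on the log2 scale without BPA 2500 library 2). BPA 2500 libraries 2 and 4 were high and the other 2 within the range of the lower dose. Tekt1, a tektin of ciliary microtubules, was the single call of edgeR (DESeq2 called 5 and voom 0; 3.12, SE 0.97, adjusted p = 0.0307, and 0.066 to 0.113 without BPA 2500 library 2 or 4 or BPA 250 library 1, 2 or 4). Its log2 fold change was 4.53 without BPA 250 library 3. Odad4 was high in the same BPA 2500 library 2, and the part of ciliated cells in its value was not tested. Without BPA 2500 libraries 2 and 4, a choice made after the data were seen, 456 genes were called in the whole comparison.

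Of 30 interferon and antigen processing genes, 1 rose (3.33%) and 2 fell (6.67%), below the 6.66% and 7.71% of all genes tested. B2m, the light chain of class I molecules, had 2404, 1785, 1623 and 2139.8 CPM in BPA 2500 uteri, against 4472, 4145, 2556 and 3173 CPM in BPA 250 uteri, without overlap (log2 fold change −0.85, SE 0.25, adjusted p = 0.021, and 0.0509 to 0.086 without BPA 2500 library 2 or 3 or BPA 250 library 1 or 2). The peptide transporter Tap2 rose by 0.84 (SE 0.23, adjusted p = 0.0175, and 0.0567 to 0.0882 without BPA 2500 library 3 or 4 or BPA 250 library 1 or 4). The other call was Rsad2, described above.

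A few immune and hormone genes at very low counts also passed. Nos2, the inducible nitric oxide synthase, had 40 reads over the 4 BPA 2500 libraries, against 3 over the BPA 250 libraries, a ratio of 12.1 at equal depth with an exact 95% counting interval of 3.86 to 61.2. The peptide hormone gene Insl3 had 36 reads against 2, which is 16.4 times as many at equal depth (4.21 to 140). The mast cell tryptase Tpsab1 had 20 reads in BPA 2500 uteri and 0 in BPA 250 uteri, at least 6.06-fold higher against a floor of 3 counts over the group. These intervals and the floor cover counting error only. Each of the 3 calls ended without certain libraries. The adjusted p was up to 0.0775 for Nos2 (without BPA 2500 library 3 or 4 or BPA 250 library 1, 3 or 4). It was up to 0.0726 for Insl3 (without BPA 2500 library 3 or 4 or BPA 250 library 1 or 4). For Tpsab1 it was up to 0.0707 (without BPA 2500 library 2 or 4 or BPA 250 library 1, 2 or 4). Other mast cell genes did not rise with Tpsab1. Of 17 eosinophil and mast cell genes, 1 rose and 1 fell (5.88% each), against 6.66% and 7.71% of all genes tested. The gene that fell was Slc18a2 (log2 fold change −0.88). At an unadjusted p under 0.05, 1 was higher and 4 lower. Cpa3 had 1.58 to 3.79 CPM in BPA 2500 uteri, against 2.04 to 10.6 CPM in BPA 250 uteri.

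Where the step lies along the dose series was read from the called genes in the other groups. Relative to BPA 250, the median difference of the 887 genes that rose was 0.60 in controls, 0.75 at BPA 2.5, 0.16 at BPA 25, 0.76 at BPA 2500 and 0.81 at BPA 25000, and it was 0.50 at EE2 0.05 and 0.75 at EE2 0.5. For the 1026 genes that fell it was −0.50 in controls, −0.72 at BPA 2.5, −0.11 at BPA 25, −0.73 at BPA 2500 and −0.78 at BPA 25000, and −0.46 and −0.68 at the EE2 doses. These genes were chosen on the BPA 250 and BPA 2500 libraries, so the values describe where the other groups lie and are no test. At BPA 25, 134 of the genes that rose (15.1%) and 58 of those that fell (5.65%) were nearer to the BPA 2500 mean than to the BPA 250 mean. In controls 767 and 789 were nearer to BPA 2500, and at BPA 25000 871 and 1020.

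**Figure D5:**
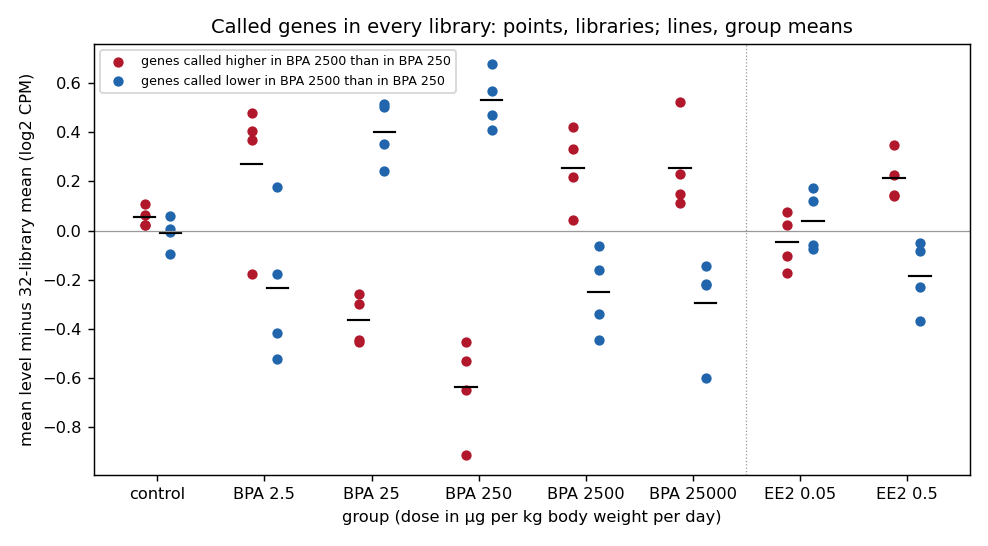
Mean log2 CPM, relative to the mean of all 32 libraries, of the 887 genes called higher (red) and the 1026 called lower (blue) in BPA 2500 than in BPA 250 uteri, for each library; short lines are group means. The genes were chosen on BPA 250 and BPA 2500; the BPA 25 libraries, at −0.46 to −0.26 for the red genes, lie on the BPA 250 side of 0.

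Group means of 3 of these genes follow the series. Ubqln2 averaged 98.7 ± 13.8 CPM in controls, 85.2 ± 14.8 at BPA 2.5, 172 ± 26.9 at BPA 25, 242 ± 68.8 at BPA 250, 76.8 ± 19.1 at BPA 2500 and 69.4 ± 15.2 at BPA 25000 (SD, n = 4 each). It stood at 107 ± 19.3 CPM at EE2 0.05 and 82.7 ± 7.27 at EE2 0.5. Nr1d1 averaged 35.1 ± 11.3 CPM in controls, 49.4 ± 4.96 at BPA 2.5, 24.4 ± 5.54 at BPA 25, 19 ± 5.60 at BPA 250, 48.5 ± 10.9 at BPA 2500 and 48.4 ± 11.1 at BPA 25000. Srsf1 averaged 715 ± 54.3 CPM in controls, 637 ± 150 at BPA 2.5, 886 ± 158 at BPA 25, 988 ± 196 at BPA 250, 495 ± 85.4 at BPA 2500 and 414 ± 17.6 at BPA 25000. Ubqln2 and Srsf1 had their highest group mean, and Nr1d1 its lowest, at BPA 250.

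The neighbouring comparisons use some of the same libraries, so their values stand side by side only. In edgeR, BPA 250 against BPA 25 called 0 genes (0%, with 600 at an unadjusted p under 0.05; DESeq2 called 1 and voom 0). BPA 25000 against BPA 2500 called 0 (0%, with 236 unadjusted; DESeq2 0 and voom 4). Against control, BPA 2500 called 0 (0%, with 1353 unadjusted; DESeq2 87 and voom 0), and BPA 250 called 1170 (8.79%), 591 higher (4.44%) and 579 lower (4.35%). The count of BPA 250 against control was 179 without BPA 250 library 1 and 415 without BPA 250 library 4, and 714, 498, 496 and 320 without control library 1, 2, 3 or 4. A p that misses the threshold does not show that neighbouring doses act alike.

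Ubqln2 had a log2 fold change of −0.36 at BPA 2500 (adjusted p = 0.546) and 1.29 at BPA 250 (adjusted p = 0.00178), each against control. Nr1d1 had 0.47 at BPA 2500 (adjusted p = 0.507) and −0.88 at BPA 250 (adjusted p = 0.024). Spry1 had −0.10 (adjusted p = 0.932) and 1.24 (adjusted p = 0.00641) at the same doses, and Dcn 0.19 (adjusted p = 0.91) and 1.58 (adjusted p = 0.0186). Srsf1 passed at neither dose, with −0.53 (adjusted p = 0.345) at BPA 2500 and 0.47 (adjusted p = 0.107) at BPA 250. Mlec had −0.91 (adjusted p = 0.252) and 0.85 (adjusted p = 0.0467).

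Whether this dose step differed from other dose steps of the same ratio was tested on libraries they do not share. Against the step between BPA 2.5 and BPA 25, 4800 genes differed (36.1%), 2613 with a higher and 2187 with a lower change at the upper step. All 24 genes named by size were among them, but they were chosen on the change between BPA 250 and BPA 2500, which this difference contains, so their passing is a description and no test. Between BPA 2.5 and BPA 25 the medians given above went from 0.75 to 0.16 for genes that rose and from −0.72 to −0.11 for those that fell. That is opposite to the upper step, so this difference adds the 2 changes there. BPA 2.5 libraries 1 and 3 had the lowest median correlations of the series (0.898 and 0.919). Against the step between EE2 0.05 and EE2 0.5, 1 gene differed (0.00751%, with 1298 at an unadjusted p under 0.05; DESeq2 19 and voom 25). This was gene 690300, with a difference of −1.13 (SE 0.19, adjusted p = 0.0253). That count was 0 without BPA 2500 library 1, 3 or 4, BPA 250 library 1 or 4, EE2 0.05 library 1, 2 or 4, or EE2 0.5 library 3 or 4.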

How the data were processed

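RNA of 32 rat uterus libraries had been sequenced, and the authors deposited raw read counts of 17327 genes. Per the submitters' processing notes, bcl2fastq, TopHat and edgeR were used with build rn5; tool versions, gene annotation and strandedness of counting are not given here. Symbols, promoters and overlaps came from RefSeq tables of GRCr8, a different build, which named 17167 genes; 160, with 1.82% of counts, had no match.

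In R 4.3.3, edgeR 4.0.16 kept 13312 genes (minimum count 10, minimum total 15), scaled by TMM and fitted 1 mean for each of the 8 groups, which share the estimate of spread. Quasi-likelihood p-values were adjusted by Benjamini-Hochberg over all genes tested, with a threshold of 0.05. The SE is the absolute log2 fold change divided by the root of F. CPM use TMM-scaled sizes, and log2 CPM a prior count of 2. DESeq2 1.42.0 and limma 3.58.1 (voom) were alternatives, and every library was left out in turn. The steps were tested on simulated counts. Named genes are the 12 largest changes each way with a mean log2 CPM of at least 1, an adjusted p under 0.05 and all 4 BPA 2500 libraries on 1 side of the BPA 250 mean, plus a fixed panel and members of 41 lists (956 genes, 890 in the table); not all of them are described, and some are not reported here. Members and lists were chosen with earlier results of these data known. Total counts per library, 11777809 to 24661856 over the series, set a floor of 3 counts at 0.122 to 0.254 CPM in the libraries compared.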

Additional observations from a re-analysis of the deposited data

Results flagged for a closer look

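Of 252 groups of 4 libraries examined for the described genes and for depth, 14 held 1 library whose distance from its neighbour on the log2 CPM scale passed Dixon's 95% critical value; chance alone gives about 1 in 20. In BPA 2500 uteri the library apart was library 1 for Hnrnph1 (431 CPM, high) and Por (38.1 CPM, low), library 3 for Grin1 (11.8 CPM, high) and C1qtnf3 (4.15 CPM, low), and library 4 for Lipe (31.6 CPM, high) and Dbp (26.4 CPM, low). In BPA 250 uteri library 1 was low for Hspa1l, Prss12, Wdr25 and Cyp2s1, with 0 CPM each, and high for Svbp (147 CPM). Library 2 was high for Psmd2 (146 CPM) and Insl3 (0.0907 CPM, from 2 reads), and library 4 for Rgs1 (96.9 CPM).

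The change between BPA 250 and BPA 2500 differed from that between BPA 2.5 and BPA 25 at 4800 genes in edgeR's test of the difference. In the medians of the called genes these 2 changes ran in opposite directions. The genes named by size were chosen on the first of these changes, so their values are a description. Among them the differences of the log2 changes were 5.46 for Odad4, 5.43 for Cldn24, 3.77 for C10h16orf89, 3.57 for Btg1b, 3.95 for Clic6, 4.65 for Hspa1l, 4.48 for Pnma8b and 4.16 for Tbx2. They were 2.72 for Grin1, 3.26 for Prss12, 4.00 for Kif19 and 2.30 for Wdr25. Among the genes that fell they were −3.75 for Svbp, −2.91 for Pkd2l2, −3.24 for Ptgs2, −2.90 for Giot1, −3.30 for Snhg4 and −3.01 for Mlec. They were −2.28 for C1qtnf3, −2.67 for Ubqln2, −2.13 for Rsad2, −2.52 for Kbtbd3, −2.70 for Mex3b and −1.70 for Rgs1. Against the step between the EE2 doses 1 gene differed, 690300, by −1.13.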

How the results depend on the processing

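The main count of 1913 (887 higher, 1026 lower) was 923 (277 and 646) with only the BPA 2500 and BPA 250 libraries in the fit, 2913 (1440 higher) at a threshold of 0.1 and 456 (218 and 238) without BPA 2500 libraries 2 and 4. It lay between 1708 and 2781 with DESeq2's size factors, no filter, a stricter filter, a robust spread, DESeq2, voom or without the 4 libraries of lowest correlation. No main call reversed sign in any of these. Leaving out 1 library gave 712 to 2096 (301 to 987 higher, 411 to 1112 lower). BPA 250 against control gave 1842 (1044 higher) with DESeq2 and 2991 (1491 and 1500) with voom, and 179 to 1594 (117 to 757 higher, 62 to 837 lower) without 1 library. BPA 2500 against control gave 87 (68 and 19) with DESeq2 and 74 (70 and 4) without the 4 libraries. BPA 250 against BPA 25 gave 1 (1 lower) with DESeq2, and BPA 25000 against BPA 2500 gave 4 (3 and 1) with voom; these 3 comparisons stayed at 0 without any 1 library. The difference from the EE2 step gave 19 (9 and 10) with DESeq2, 25 (7 and 18) with voom, and 0 (0 lower) with no filter or without the 4 libraries, and 0 to 1 without 1 library. The difference from the BPA 2.5 to 25 step gave 4052 to 5571 (1963 to 3045 higher, 1953 to 2526 lower) without 1 library. The cause of these changes was not tested.

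Of the genes described, 4 that did not pass changed sign. Foxj1 was at −0.085 without BPA 2500 libraries 2 and 4. Igf1 was at −0.42 to 0.14 without 1 library, with 0.14 without BPA 2500 library 4, and 0.40 without libraries 2 and 4. Krt8 was at −0.17 to 0.70 without 1 library, with −0.17 and −0.04 without BPA 250 library 1 or 3, and −0.15 without the 4 libraries. Ltf was at −1.29 to 0.20 without 1 library, with 0.13, 0.11 and 0.20 without BPA 2500 library 2 or 3 or BPA 250 library 2, and 0.28 without BPA 2500 libraries 2 and 4. Fits without the 4 libraries, or without BPA 2500 libraries 2 and 4, were chosen after seeing the data. No paired analysis was possible because the labels give the libraries of different groups no shared replicate numbers. Genes below the count filter were not tested, which limits what could be detected at the lowest library total of 11777809.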

Other observations

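Genes were also grouped by the stem of their symbols, for stems with at least 20 tested genes, a grouping chosen after the results were seen and given as counts only. Of 40 tested RT1 genes, the rat major histocompatibility complex, 14 were called higher in BPA 2500 uteri and 0 lower, against 6.66% higher and 7.71% lower over all genes, with a median log2 difference of 0.58 (2 lower at an unadjusted p under 0.05; DESeq2 and voom called 0 lower). RT1-O1 had 39.3, 60.3, 73.2 and 74.0 CPM in BPA 2500 uteri, against 34.5, 30.9, 22.5 and 26.6 CPM in BPA 250 uteri (log2 fold change 1.11, SE 0.26, adjusted p = 0.00738 in edgeR). Other members were less stable. RT1-S2, RT1-CE5, RT1-A3 and RT1-DOb lost the call in 5, 6, 5 and 4 of the 8 fits that left out 1 library (adjusted p up to 0.145). Many RT1 genes are near-identical copies that overlap in the annotation, so the counting could split their reads, and these values are uncertain for single genes.

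Of 35 tested Ube genes, the ubiquitin-conjugating and ligating enzymes, 0 were called higher and 9 lower (25.7%) in BPA 2500 uteri, against 6.66% and 7.71% of all genes (1 higher at an unadjusted p under 0.05; DESeq2 and voom called 0 higher). Ube2d3, a conjugating enzyme, had 208, 189, 141 and 133 CPM in BPA 2500 uteri and 350, 392, 234 and 418 CPM in BPA 250 uteri, without overlap (log2 fold change −1.05, SE 0.27, adjusted p = 0.01 in edgeR). Ube2d1, of the same class, fell by 1.14 (SE 0.28, adjusted p = 0.00871, and 0.0501 without BPA 2500 library 3). Ube3a, the E6-AP ligase, fell by 0.85 (SE 0.22, adjusted p = 0.0117, and 0.0543 without BPA 2500 library 3). Of 22 Arl genes, small GTPases and their partners, 0 were higher, at an unadjusted p under 0.05, in DESeq2 or in voom as well, and 6 lower (27.3%). Arl8b, which positions lysosomes, had 321, 264, 230 and 263 CPM in BPA 2500 uteri, against 466, 468, 487 and 501 CPM in BPA 250 uteri, with both sets tight (log2 fold change −0.84, SE 0.20, adjusted p = 0.00647). Arl13b, a GTPase of cilia, fell by 0.97 (SE 0.20, adjusted p = 0.00294). Map genes, which include MAP kinase kinases, gave 8 higher (19.5%) and 1 lower (2.44%) of 41, and Zfp zinc finger genes 10 higher (5.68%) and 23 lower (13.1%) of 176.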
